A study of Danio rerio with 4 samples.

Results

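Long chains of summits are the regions of anti-GFP enrichment with the most summits in zebrafish chromatin profiled for Gfi1aa. A summit is a local maximum of read enrichment, and a peak caller lists several summits in 1 region where enrichment stays above its threshold between them. The chains are the regions on chromosomes 1 to 25 with 10 or more summits. They number 204 of 109722 chromosomal regions, or 0.186%, and the whole list has 111166 regions. They were chosen by a measured value, the number of summits, so their number and length describe the choice. They are set beside the 2083 regions with 5 to 9 summits (1.9% of chromosomal regions).

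Chromatin immunoprecipitated with an antibody against GFP was sequenced in 2 libraries, alongside 2 input libraries made without antibody. All 4 came from whole zebrafish embryos at 15 hours post fertilisation. The titles name Gfi1aa, while the labels give no genotype, strain or construct and do not say whether the libraries came from separate clutches. Whole embryos hold many cell types, so a chain cannot be assigned to blood cells. The study asked where Gfi1aa binds, as part of its work on Gfi1aa, Lsd1 and cebpa in neutrophil development.

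Gfi1aa belongs to the GFI1 family of zinc finger transcriptional repressors. These proteins carry a SNAG domain at their N-terminus that recruits the histone demethylase Lsd1, which removes methyl groups from histone H3 and so helps to silence target genes. In the mouse, Gfi1 is needed for neutrophil development. In zebrafish, gfi1aa is known from the early red blood cell lineage. Regions where many bound sites follow each other within kilobases are a known feature of gene regulatory clusters. No gene annotation or sequence of the assembly used by the list, GRCz11, was used here, so no gene names, motifs or repeats are given for the chains.

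The list gives 1 position and 1 score per summit, read as the −log10 of a q-value, the p-value corrected for the number of tests. The values would look the same at their lower end if they were −log10 p-values without correction, so this reading is not certain. Scores run upwards from 1.302, and the median over the whole list was 7.29. Each summit was scored once for the whole series. There is thus no replicate error and no value for the input libraries. No test was run on the chains, and the spreads below are quartiles over chains or standard deviations (SD) over the 25 chromosomes. Read depth is not given, and 95% intervals of shares are exact Clopper-Pearson intervals that cover counting error only.

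The long chains held 2672 summits, 1.65% of the 161735 on chromosomes, in a summed length of 0.129% of the span between the first and last summits of the chromosomes. The number of regions fell steeply with the number of summits, with no break at the limit of 10. There were 152 regions with 8 summits, 84 with 9, 62 with 10, 45 with 11 and 25 with 12. Just inside the limit, regions with 10 summits had a median length of 5.92 kb and a median strongest score of 64.0 (quartiles 41.9 and 106.5). Just outside it, regions with 9 summits had 5.45 kb and 50.1 (quartiles 30.1 and 90.3). Regions with 8 summits had a median strongest score of 67.0 (quartiles 36.8 and 136), so that score showed no step at the limit. Among the long chains, 62 had exactly 10 summits (30.4%), 104 had 11 to 14, 24 had 15 to 19 and 14 had 20 or more (0.0128% of chromosomal regions).

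**Figure D1:**
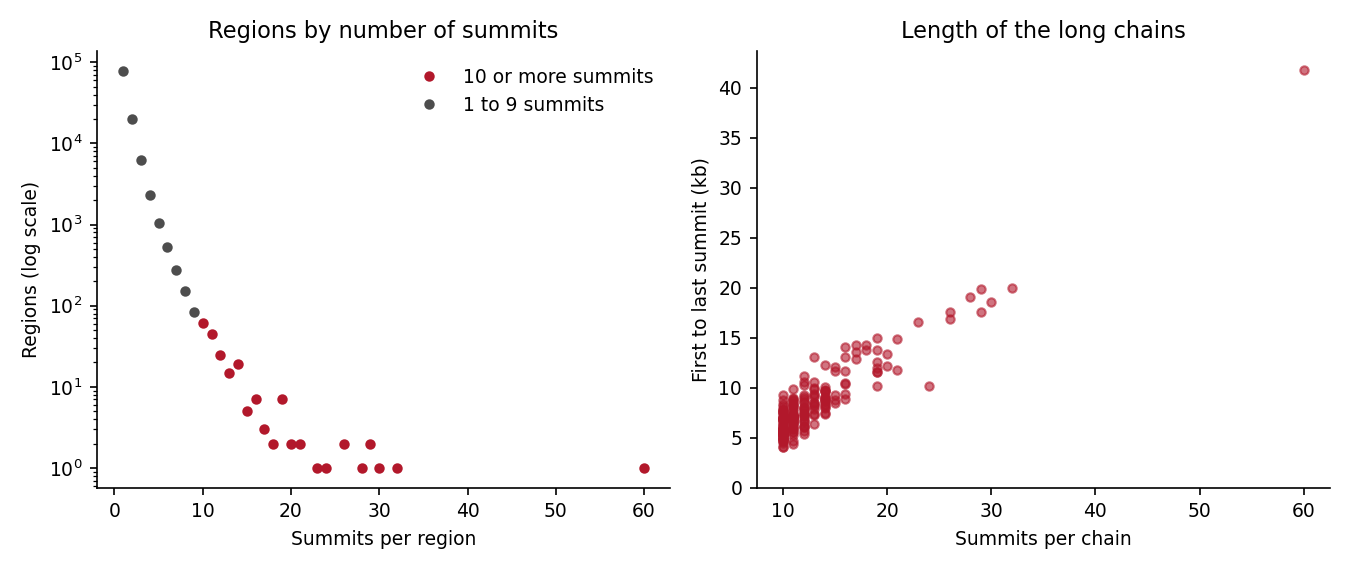
Left, number of chromosomal regions (log axis) against the number of summits per region, with the long chains in red. Right, length from first to last summit in kb against the number of summits for each of the 204 long chains. Regions thin out without a break at 10 summits, and 1 chain of 60 summits and 41.8 kb stands apart from the next, with 32 summits and 20.01 kb.

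From first to last summit, the long chains had a median length of 7.53 kb (quartiles 6.27 and 9.29 kb), against 3.08 kb (2.45 and 3.95 kb) in regions with 5 to 9 summits. Regions reach beyond their outer summits by an amount the list does not give, so these lengths are lower limits. The shortest long chain packed 10 summits into 4.05 kb on chromosome 10, from position 28831674 to 28835724. Its strongest summit, at 27.6, was also its first. The longest ran over 41.8 kb on chromosome 1. Between these extremes, the 104 chains of 11 to 14 summits ranged from 4.39 to 13.1 kb, and the 14 chains of 20 or more from 10.2 to 41.8 kb.

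Summits in long chains stood about as far apart as in regions with 5 to 9 summits. The median spacing of adjacent summits within a chain had a median of 645 bp over the long chains (quartiles 565 and 738 bp), against 625 bp (514 and 757 bp) in regions with 5 to 9 summits, a ratio of 1.03. The 25 chromosome medians averaged 660 ± 56.3 bp (SD) in long chains and 625 ± 22.4 bp in regions with 5 to 9. The difference is smaller than the spread between chromosomes of the long chains. That spread is over medians of few chains, a mean of 8.16 per chromosome, and is not the error of the difference. The long chains had the wider spacing on 19 of 25 chromosomes. Taken over all 2468 single gaps of the long chains, whose 5% and 95% quantiles were 275 and 1348 bp, 7.17% were under 300 bp and 17.4% over 1000 bp. In regions with 5 to 9 summits, 8.81% and 15.1% of 10207 gaps were under 300 bp and over 1000 bp.

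The spacing was uneven within chains. The coefficient of variation of the gaps had a median of 0.433 in long chains and 0.411 in regions with 5 to 9 summits. A typical long chain held gaps as narrow as 284 bp and as wide as 1285 bp (medians of the narrowest and widest gap). The lowest coefficient of variation of any long chain was 0.206, so none had evenly stepped summits. More gaps give more extreme ones, so the narrowest and widest gap are not set against those of shorter regions.

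The tightest chain lay on chromosome 8 from position 10559925 to 10570089, where 24 summits followed each other at a median of 379 bp. Its scores were low, with a strongest summit of 24.0 and a median of 5.93. Next came 12 summits on chromosome 19 from 35472453 to 35477841, with a median spacing of 410.0 bp, and one of 11 summits on chromosome 24 from 39113489 to 39118188, with 410.5 bp. The widest spacing, 1096 bp, was also on chromosome 24, in a chain of 13 summits from 8716645 to 8729746. On chromosome 16, 12 summits from 42102379 to 42113577 followed each other at 1072 bp, and 17 summits on chromosome 24 from 17131969 to 17146223, had 1020.5 bp. Chromosome 24 thus held 2 of the 3 widest and 1 of the 3 tightest chains. Its 9 chains had a median spacing of 632 bp, within 1 SD of the mean of 660 bp over the 25 chromosome medians.

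Chains with wider spacing had higher scores. The 68 chains with the tightest spacing, 379 to 595 bp, had a median summit score of 12.6 (quartiles 8.93 and 17.8). The 68 in the middle, 597 to 707 bp, had 16.5 (11.3 and 22.9), and the 68 widest, 708 to 1096 bp, had 23.0 (13.5 and 35.8). Over all 204 chains, Spearman's rho between spacing and median summit score was 0.40, and over the 2083 regions with 5 to 9 summits it was also 0.40. The relation is therefore not limited to long chains. All of these were scored from the same libraries. The number of summits was nearly unrelated to spacing (rho 0.01) and weakly to the median score (rho 0.10).

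**Figure D2:**
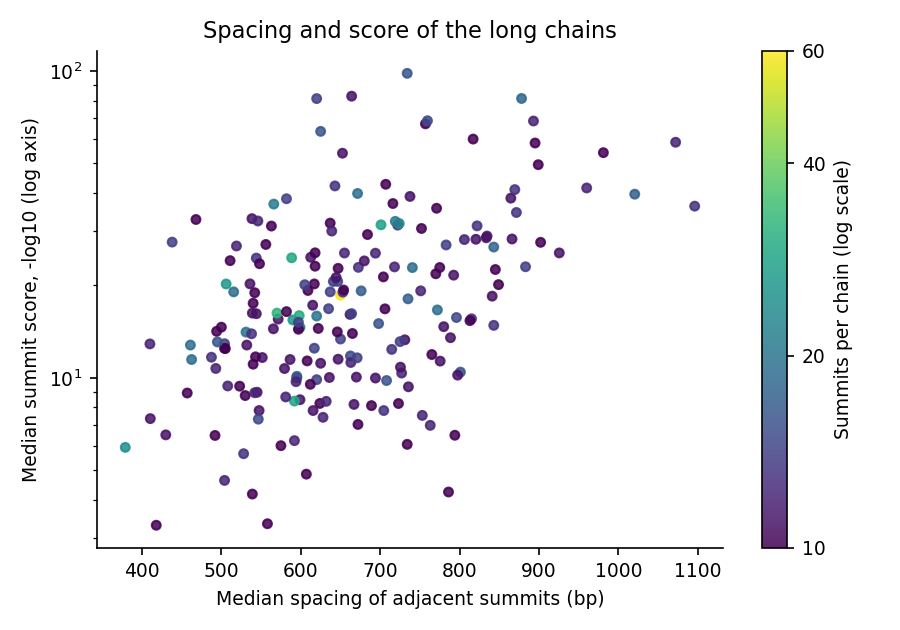
Median summit score (−log10, log axis) against median spacing of adjacent summits in bp for the 204 long chains, coloured by the number of summits. Scores are higher towards wide spacing (Spearman's rho 0.40), and the 14 chains with 20 or more summits range from 379 to 724 bp.

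Long chains scored higher than shorter regions, with a large overlap. The median summit of a chain had a median score of 16.1 (quartiles 10.7 and 26.7), against 12.5 (7.03 and 23.1) in regions with 5 to 9 summits, a ratio of 1.29. The long chains were higher on 20 of 25 chromosomes. By number of summits, this median score was 11.3 with 5, 15.5 with 8, 12.1 with 9, 16.6 with 10 and 11.2 with 12. It thus did not rise steadily with the number of summits. Chromosome medians were 18.2 ± 6.07 (SD, 25 chromosomes) for the long chains and 12.7 ± 1.60 for regions with 5 to 9. Their difference is smaller than the spread between chromosomes of the long chains. A chromosome held a mean of 8.16 long chains and 83.3 regions with 5 to 9 summits, and medians over fewer members scatter more. That spread is thus not the error of the difference, which was not tested. In 188 of the 204 chains (92.2%, interval 87.6 to 95.5%), the median summit exceeded the 7.29 of the whole list. In regions with 5 to 9 summits the share was 73.5% (71.6 to 75.4%). A median over more summits varies less, so these shares are descriptions. By summit, 43.4% of those in long chains scored 20 or more, against 35.5% in regions with 5 to 9 and 21.1% of all on chromosomes.

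The strongest summit of a chain had a median score of 83.0 (quartiles 43.1 and 120), against 46.5 (24.2 and 83.5) in regions with 5 to 9 summits. With more summits a higher maximum is built in, so this ratio of 1.79 is a description only. In 164 chains (80.4%) it lay in the top 10% of the list, at 38.5 or more, and in 37 chains (18.1%) in the top 1%, at 137 or more, against 58.2% and 10.5% of regions with 5 to 9 summits. It reached 100 or more in 77 chains (37.7%) and stayed under 20 in 11 (5.39%), against 18.6% and 19.8% of regions with 5 to 9. None of the long chains held a summit above 454. Regions with 5 to 9 summits reached 514. A region of 11 summits on an unplaced scaffold, left out here because of its place, reached 981.

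The strongest chain by its highest score lay on chromosome 5 from position 3568366 to 3582397, with 16 summits over 14.03 kb. Its strongest summit reached 454, its median summit 98.1 and its weakest 23.9, so high scores ran through its whole length. On chromosome 12, a chain of 12 summits from 34712759 to 34723023 reached 401 with a median of 68.6. The next, on chromosome 14 from 22133994 to 22142354, reached 323 among 14 summits, but its median was only 9.86, and no other summit reached 50% of the strongest. It had the largest contrast within any long chain, 32.7 between strongest and median summit.

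The weakest chain showed that many summits did not require strong ones. It lay on chromosome 16 from position 28292944 to 28298268, where 10 summits scored between 1.76 and 6.30. The next weakest were both on chromosome 24. The chain from 39113489 to 39118188 peaked at 11.6, and 10 of its 11 summits had at least 50% of that score. The chain from 25816102 to 25822955 peaked at 12.6 among 12 summits, with a median of 8.38. In both, the strongest summit was the last.

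Most chains mixed strong and weak summits. In 158 of 204 chains (77.5%), at least 1 summit scored under 5, and in 13 (6.37%) every summit scored 10 or more. In regions with 5 to 9 summits, these shares were 68.2% and 10.3%. More summits make a weak one more likely in advance, so these shares are descriptions. Across all their summits, 15.1% scored under 5, against 22.7% in regions with 5 to 9 summits and 35.3% on all chromosomes. The strongest summit was a median of 3.90 times the median summit of its chain (quartiles 2.71 and 6.20). A median of 3 summits per long chain, the strongest included, reached at least 50% of the strongest score, and in 43 chains (21.1%) the strongest stood alone at that level. In regions with 5 to 9 summits, where fewer summits can reach it, that share was 31.5%.

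The strongest summit had no preferred place along the chain. With the length split into 3 equal parts, it lay in the first part in 65 chains (31.9%), in the middle part in 66 (32.4%, interval 26.0 to 39.2%) and in the last part in 73 (35.8%). Regions with 5 to 9 summits gave 33.4%, 31.3% and 35.3%. It was the first or last summit in 35 long chains (17.2%), while the end summits make up 16.5% of the summits of a long chain on average. In regions with 5 to 9 summits, these values were 32.5% and 35.0%.

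Scores were lower towards the ends of long chains. With the length split into 5 equal parts, the median scores were 13.9 and 12.8 in the first and the last part, which include the end summits. In the parts between them they were 18.5, 19.5 and 19.9, in order along the chromosome. Relative to the median of its own chain, a summit had a median of 0.906 and 0.857 in the first and last part and 1.06 to 1.12 in between. A region ends where enrichment falls to the threshold of the peak caller, so lower scores near the ends may be built in. Regions with 5 to 9 summits were not split in this way. The median of the interior summits was also compared with the mean of the first and last summit. It was the higher in 104 of 204 chains (51.0%), and in 50.5% of regions with 5 to 9 summits. A single high end summit raises that mean, so these shares do not show whether end summits scored lower.

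Scores decreased with distance from the strongest summit, most steeply over the first 2 kb. The strongest is the maximum, so other summits lie below it by construction, and the farthest distances come only from longer regions. In long chains, summits 0.25 to 0.5 kb from the strongest had a median of 68.2% of its score, those at 0.5 to 1 kb 36.0%, those at 1 to 1.5 kb 27.3% and those at 1.5 to 2 kb 21.9%. Farther out, the medians were 24.4% at 2 to 3 kb, 22.7% at 3 to 4 kb, 19.1% at 4 to 6 kb and 13.1% at 6 to 9 kb. Regions with 5 to 9 summits had 59.8% at 0.25 to 0.5 kb, 32.3% at 0.5 to 1 kb, 19.7% at 2 to 3 kb and 12.7% at 4 to 6 kb. The quartiles of both classes overlapped at every distance. Summits were also more widely spaced next to the strongest. In 162 long chains (79.4%), the mean of the gaps beside it exceeded the mean gap of the chain. In regions with 5 to 9 summits the share was 68.8%. With fewer summits the gaps beside the strongest make up more of the mean gap, so these shares are descriptions.

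**Figure D3:**
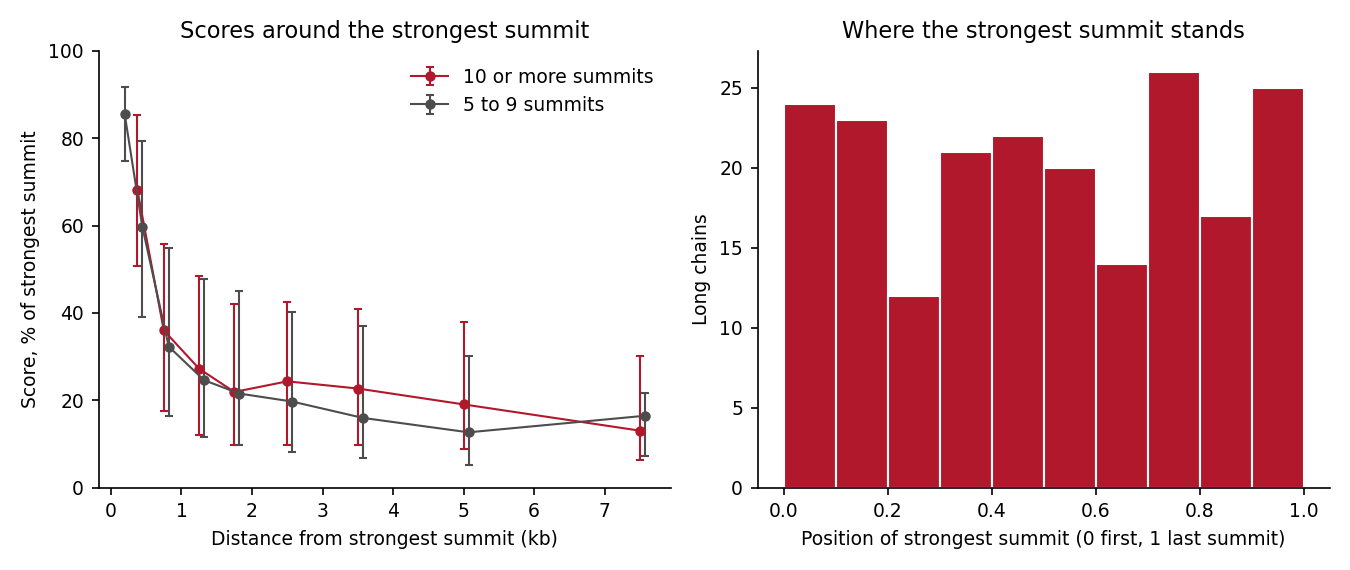
Left, score of the other summits of a region as a percent of its strongest summit, against the distance from that summit in kb (medians with quartiles as bars), for long chains and for regions with 5 to 9 summits. Right, number of long chains by the relative position of their strongest summit, from 0 at the first to 1 at the last summit. Medians drop to 36.0% of the strongest at 0.5 to 1 kb in long chains and to 21.9% at 1.5 to 2 kb, and the strongest summit occurs at all positions.

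Neighbouring summits of a chain differed less in score than summits farther apart, but still differed. The median fold between the scores of 2 adjacent summits in long chains was 1.84 (2468 pairs). It was 2.15 for summits 2 places apart, 2.45 for 3 and 2.56 for 4, and then changed little, reaching 2.76 for 8. In regions with 5 to 9 summits, it was 2.03 for adjacent summits, 2.54 for 2 places, 2.78 for 3 and 2.96 for 4. Within single long chains, the rank correlation of a summit with the next had a median of 0.26 (quartiles 0.04 and 0.47). That correlation is pulled down in short series, so it is not set against regions with fewer summits.

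On chromosome 1, the chain of 60 summits between 45570951 and 45612749 showed several maxima. Its first summit scored 2.37 and its last 1.50. The strongest, at 128, stood 14.8 kb from the first, and the second, at 113, stood 17.4 kb from it. Another high summit, at 104.5, followed at 26.0 kb. Scores of 75.3 stood at 9.19 and 28.2 kb, and 26 of the 60 summits reached 20 or more. In 4 equal parts of its length, the median scores were 17.3, 27.9, 21.7 and 16.5, and summits under 5 numbered 3, 0, 1 and 2. High summits were thus spread over most of its length, with the highest median in the part after the first, and both ends were weak. Its median spacing, 650 bp, was close to that of all long chains.

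The next chains by number of summits had different outlines. On chromosome 15, the chain of 32 summits had none under 5, and its strongest summit of 64.4 stood at 40.7% of its length. On chromosome 17, the chain of 30 summits held 1 summit of 193 at 77.7% of its length, and no other reached 50% of it. The chain of 29 summits on chromosome 14 had only 2 summits at 20 or more. The chain of 29 on chromosome 22 had 15, and that of 28 on chromosome 1, from 50692490 to 50711613, had 18. In this last chain the strongest summit, at 103, stood at 96.1% of the length.

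**Figure D4:**
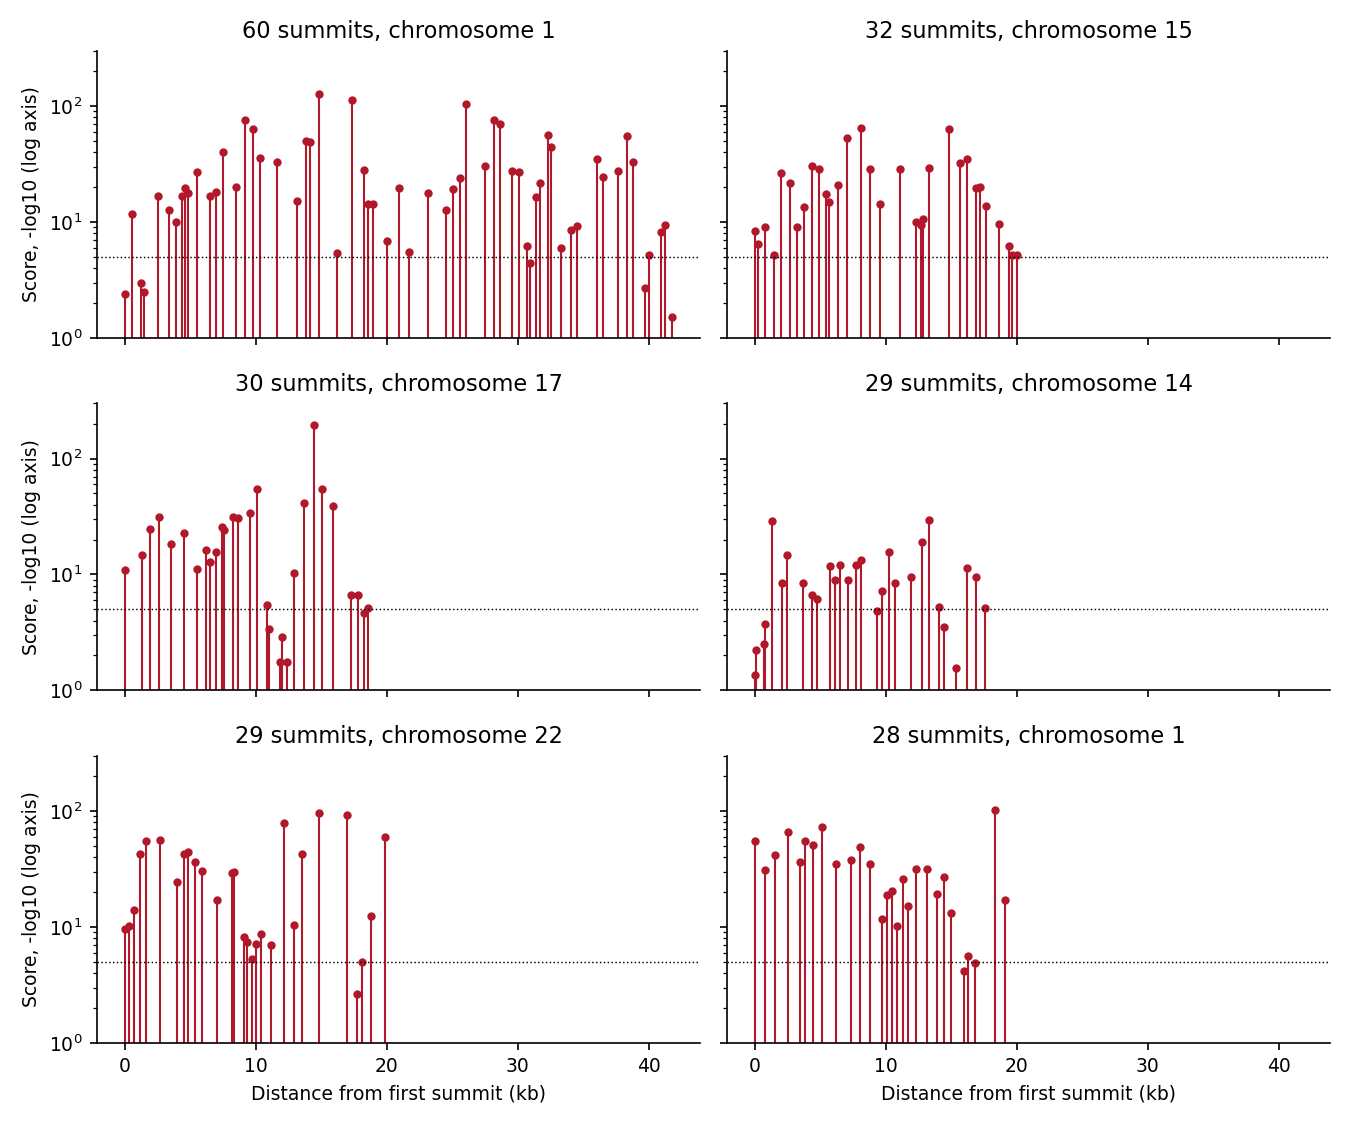
Score of each summit (−log10, log axis) against its distance from the first summit of the chain in kb, for the 6 chains with most summits. The dotted line marks a score of 5. The chain of 60 summits rises to 128, 113 and 104.5 at separate places, the chain of 30 has a single summit of 193, and the chain of 29 on chromosome 14 stays at or below 29.7.

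The other 8 chains with 20 or more summits ranged from 10.2 to 17.6 kb. On chromosome 15, 26 summits stood between positions 31562565 and 31579446 with a strongest score of 99.4. On chromosome 4, a chain of 26 lay from 5317460 to 5335013 (strongest 87.7) and one of 23 from 25059498 to 25076122 (strongest 93.1). Besides its tightest chain, chromosome 8 had 21 summits from 28335099 to 28350005, all scoring 10.6 or more. On chromosome 14, 21 summits from 45630432 to 45642176 peaked at 249 near the start. The chain of 20 on chromosome 13, from 45461214 to 45474577, peaked at 156 over a median of 14.1. That of 20 on chromosome 20, from 53981555 to 53993769, was the flattest of the 14, with all scores between 11.5 and 34.7 and a strongest summit 2.19 times its median.

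Long chains occurred on all 25 chromosomes. They averaged 8.16 ± 2.48 per chromosome (SD, 25 chromosomes), from 2 on chromosome 11 to 13 on chromosomes 15 and 16. Per 1000 regions, the mean was 1.89 ± 0.587, and chromosome 15 (3.18), chromosome 16 (2.84) and chromosome 18 (2.75) were highest, while chromosome 11 had 0.510. Regions with 5 to 9 summits were more even, at 19.0 ± 2.15 per 1000, from 14.4 on chromosome 12 to 23.6 on chromosome 22. Counts of about 8 vary widely by counting alone, and more than counts of about 80. Whether chromosomes differed by more than counting error was not tested. The order of the chromosomes and the wider relative spread of the long chains are thus descriptions. Chromosome 11, which had fewest long chains, had 19.9 regions with 5 to 9 summits per 1000.

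**Figure D5:**
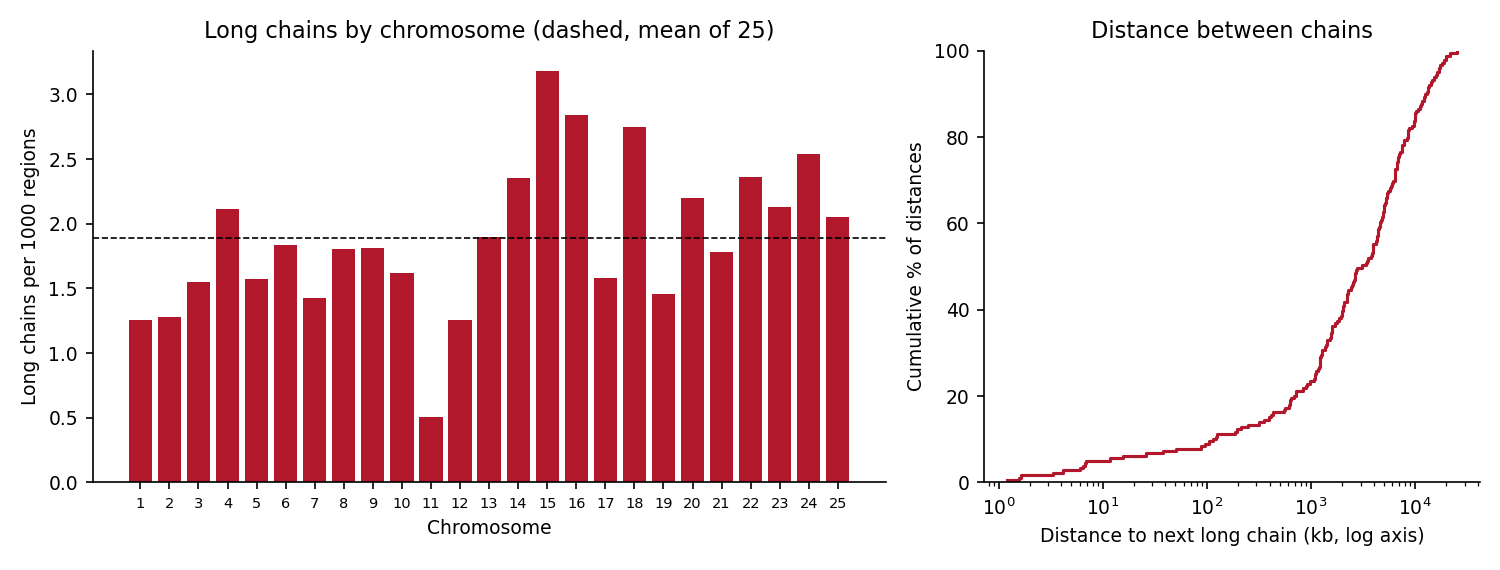
Left, long chains per 1000 regions on each chromosome, with the mean of the 25 chromosomes dashed. Right, cumulative percent of the 179 distances from a long chain to the next one on its chromosome (kb, log axis). Chromosome 15 had 3.18 and chromosome 11 had 0.510 long chains per 1000 regions, and 5.03% of the distances were under 10 kb.

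The range covered by the chains differed between chromosomes. The 6 chains of chromosome 1 lay between positions 40080691 and 55750212, and the 9 of chromosome 23 between 10249309 and 26519874. Those of chromosome 7 ran from 542566 to 73859556, and those of chromosome 18 from 41550 to 44118850. These chromosomes were picked after their values were seen. The share of all regions inside these ranges is not given, so they do not show clustering. The 10 chains of chromosome 4 all lay between 5317460 and 25076122. Beyond 30 Mb on that chromosome, 0 of 1262 regions were long chains. A count of 0 there allows up to 2.38 per 1000 when taken as 3 counts, and 2.92 per 1000 as the exact upper limit. The other chromosomes had 1.85 per 1000, below both limits, so fewer chains than there were not detectable. Chromosome 4 up to 30 Mb had 2.88 per 1000 (10 of 3475, interval 1.38 to 5.29), above the first limit and just below the second. Beyond 30 Mb on chromosome 4, regions with 5 to 9 summits numbered 11.9 per 1000 (interval 6.67 to 19.5). Up to 30 Mb they numbered 20.7 per 1000 (16.2 to 26.0), and on the other chromosomes 19.0 (18.2 to 19.9). The outer 500 kb was counted inwards from the first and last summit of each chromosome, since chromosome lengths were not used. It held 6 long chains (2.94%, interval 1.09 to 6.29%), 4.46% of regions with 5 to 9 summits and 2.46% of all regions.

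Most long chains were far from the next, and a small number stood almost side by side. The 179 distances between neighbouring chains, from the last summit of one to the first of the next, had a median of 3111 kb (quartiles 1115 and 6846 kb). The largest was 25.4 Mb on chromosome 3, from position 23743019 to 49158269. On chromosome 11, the only 2 chains were 19.1 Mb apart. Under 1000 kb were 42 distances (23.5%), under 100 kb 16 (8.94%), under 50 kb 13 (7.26%) and under 10 kb 9 (5.03%). Distances between regions with 5 to 9 summits were shorter, at a median of 313 kb over 2058 distances, as follows from their larger number.

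The 9 distances under 10 kb joined 18 chains into 9 pairs. The closest pair was on chromosome 15, where chains of 19 and 14 summits were 1.20 kb apart and filled 21.6 kb from position 19657725 to 19679282. Their strongest summits scored 48.0 and 48.4 and their median summits 14.6 and 19.1. On chromosome 18, 2 chains of 14 summits were 1.56 kb apart, from 6535523 to 6554227, with median summits of 38.3 and 12.5. On chromosome 16, the weakest of all chains was followed after 1.64 kb by one of 12 summits, which peaked at 31.8. In these 3 pairs no other region lay between the chains. Such distances fall within the range of single gaps inside long chains, which reached 2.50 kb, so where the peak caller ended a region sets how these pairs are counted.

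Counted as pairs, 5 of the 9 stretches were longer than every single chain except that of 60 summits. The chain of 32 summits on chromosome 15 was followed after 6.52 kb by one of 19, giving 51 summits over 38.1 kb from position 20901368 to 20939451, with 3 smaller regions between them. On chromosome 20, 31 summits in 2 chains spanned 24.3 kb from 53969472 to 53993769. On chromosome 23, chains of 11 and 12 summits 6.04 kb apart reached 102 and 204. Chromosomes 5 and 21 held 1 pair each, and chromosome 20 a second one. Within the 9 pairs, the median summits of both chains differed by a median of 1.31-fold.

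Long chains lay among other regions. Every one of the 204 had another region within 10 kb of one of its ends, as had 95.5% of regions with 5 to 9 summits. The nearest region was a median of 1.50 kb away (quartiles 1.09 and 2.21 kb), against 1.79 kb (1.25 and 2.98 kb) for regions with 5 to 9. Within 50 kb of either end, long chains had a median of 15 other regions (quartiles 11.8 and 19), against 13 (9 and 17) for regions with 5 to 9, and the long chains were higher on 19 of 25 chromosomes. Another region with at least 5 summits lay within 50 kb of 123 long chains (60.3%, interval 53.2 to 67.1%), against 37.6% (35.5 to 39.7%) of regions with 5 to 9 summits. Within 200 kb the medians were 44.5 for long chains and 44 for regions with 5 to 9 summits. The long chains were higher on 15 of 25 chromosomes and lower on 6. That count includes the regions within 50 kb. Mean counts were 15.3 against 13.6 within 50 kb and 45.3 against 44.3 within 200 kb. On average, the regions between 50 and 200 kb thus added no excess for the long chains.

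The surroundings varied widely between chains. On chromosome 8, 11 summits in a chain from 3077604 to 3083226, had only 1 other region within 50 kb, and one of 12 on chromosome 13, from 50420720 to 50426899, had 31. The number of neighbours was nearly unrelated to the number of summits of a long chain (Spearman's rho 0.03, 204 chains) and to its median score (rho −0.09). The chain of 60 summits had 14 neighbouring regions, close to the median of 15.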

How the data were processed

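The authors deposited 1 list of summits for the series, with positions of 1 bp, a region name and a −log10 score per line. Per the submitters' processing notes, the tools were MACS2 2.2.6 (a peak caller), BWA 0.1.17 (a read aligner) and deepTools 3.5.1, with the assembly GRCz11. Their settings are not stated. The lowest deposited −log10 value, 1.30158, is just above 1.30103, the −log10 of 0.05, so the score was read as a −log10 q-value, which is an inference. A limit of 0.05 on p-values without correction would give the same minimum. The sources used here do not give the pooling of libraries, the control used in calling peaks or the treatment of repeated reads.

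Regions were taken from the number in the name, with letters removed, on chromosomes 1 to 25. All 204 members were kept, with no filter. Positions are 1-based. Members and lists were chosen with earlier results of these data known. Named chains are the 14 with 20 or more summits, the 3 with the highest and the 3 with the lowest strongest score, those of extreme length or spacing, and the closest pairs. Other chains named for their contrast, flatness, surroundings or place were chosen after their values were seen. The scripts were tested on simulated chains. Values were computed with pandas 2.3.3, scipy 1.17.1 and numpy 2.4.6 in Python 3.11.15, and plotted with matplotlib 3.10.9. Planned gene names and sequences were not run, since GRCz11 sequence and annotation were not used here. Columns of values for other samples numbered 0.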

Additional observations from a re-analysis of the deposited data

How the results depend on the processing

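Of 78 values recomputed under 10 settings, all planned, 65 moved by less than 1 SD over the 25 chromosomes and 13 moved further. For counts the limit was 1.5 times, and for shares the exact 95% interval. The SD is wide for some values, so staying within it shows little. For the ratio of median summit scores, 1.29, the SD was 0.523, so a ratio of 1 would also have stayed within it. Of the ratios to the shorter regions, 0 changed direction, and the other values had no direction to change. With limits of 8 and 12, the shorter regions were those from 5 summits to just below the limit. The number of long chains was 440 with a limit of 8 summits, 97 with a limit of 12, 115 when only summits scoring 5 or more were counted, and 86 after merging summits closer than 500 bp, against 204. Their median length was 5.90, 9.32, 8.53 and 9.60 kb under these settings, against 7.53 kb. Merging raised the median spacing to 872 bp by construction. The median number of regions within 50 kb was 11 with scores of 5 or more. It was 7 within 20 kb and 44.5 within 200 kb, where the ratio to regions with 5 to 9 summits dropped to 1.01 from 1.15. The median summit score stayed 1.10 to 1.41 times that of the shorter regions. The lowest ratio came with scores of 5 or more, the highest without the strongest summit of each region. Leaving out 1 summit lowers the median more where summits are few, so the highest ratio is in part built in. The median distance to the next chain, 3111 kb, was 1685 kb with a limit of 8, 5519 kb with 12, 4342 kb with scores of 5 or more, 6007 kb after merging and 3655 kb without chromosome 4. These count as within 1 SD because that SD is 3556 kb. No paired analysis was possible because the list holds no values per library, and no library could be left out. Depth is unknown, so how many weak summits were missed cannot be given.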

Other observations

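Outside chromosomes 1 to 25, 2 of 1442 regions on unplaced scaffolds held 10 or more summits. The one with most, 11 summits over 5.85 kb, had a strongest score of 981 and a median of 225, both above those of every long chain on the chromosomes (454 and 98.1). The mitochondrial genome had 2 regions. The longer held 16 summits over 9.81 kb, with a strongest score of 34.9 and a median of 12.6.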
